A study of Rattus norvegicus with 27 samples.

Results

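The genes described here are 9 genes of cholesterol synthesis and its control: the enzymes Acat2, Mvd, Fdft1, Sqle, Msmo1 and Hsd17b7, the regulators Srebf2 and Insig1, and the sterol carrier Stard4. They were chosen from measured values of these arrays, and the comparison of transected with sham-operated rats at 21 days, in which each gene had a probe set past the test's threshold, was taken as the one that chose them. The values of the members at 21 days are therefore a description, with no p-value, and their calls at that time support nothing. All probe sets annotated to 1 of these symbols alone were used, which gave 10 probe sets of 9 genes, with 2 for Fdft1, out of 12913 probe sets tested and 9769 genes with such a probe set.

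Cholesterol is built from acetyl-CoA through mevalonate, isoprenoids, squalene and lanosterol. The transcription factor SREBP-2, made from Srebf2, is held in the endoplasmic reticulum by the sterol sensor SCAP and the INSIG proteins while sterols are plentiful, and when sterols fall it is cleaved and switches on genes of nearly every step of this route. Neurons need cholesterol for membranes and synapses, and in the adult nervous system they are thought to take much of it from astrocytes in particles that carry apolipoprotein E.

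The data came from motor neurons that innervate the tail, collected from the sacral cord of adult male Wistar rats. The groups were 8 samples at 21 days and 8 at 60 days after the cord was cut at S2 with 1 to 2 mm of tissue taken out (Spi-21 and Spi-60), and 6 and 5 samples at the same times after a sham laminectomy that left the dura intact (ShamC-21 and ShamC-60). Animals of all 4 groups had laminectomy, buprenorphine for pain, and the retrograde tracer Fluorogold injected into muscle and peritoneum 5 to 7 days before tissue was taken. Each sample was a pool of laser-dissected neurons, 100 to 200 in the sample labels and from 50 upwards in the design text, whose RNA went through 2 rounds of amplification before hybridisation to an Affymetrix rat array. The labels number the samples as biological replicates but do not tie them to animals, so the p-values reflect variation among deposited samples, which may in part be technical.

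The values are log2 probe set signals, in which a difference of 1 is a doubling. Array medians lay between 6.31 and 6.41, and correlations between arrays between 0.825 and 0.989. Neurofilament heavy chain (Nefh), a marker of large neurons, lay between 13.17 and 14.53 on all 27 arrays, while Chat and Mnx1 had no single-symbol probe set in the table used. The mean of the 8 measured motor neuron markers lay between 11.26 and 11.77 on 26 arrays and at 9.93 on ShamC-60 replicate 4, which therefore stands apart. ShamC-60 replicate 1 had the highest mean of the 2 measured blood markers (Hbb and Alas2), 8.81 against 6.72 to 7.59 in the other 4 arrays of its group. Where leaving out either array changed the 60-day call of a named gene by its brightest probe set, the value without it is given. Called sizes could also move while the call held, and those values are not all given.

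Promoter windows were taken from RefSeq (build GRCr8), from 250 bases before to 50 after each gene's start, for the 6 of 9 genes with an entry. Fdft1, Sqle and Stard4 had none. Sequences are shown because the members are known as targets of SREBP-2, which binds sterol regulatory elements together with the factor NF-Y at CCAAT boxes. The full element TCACNCCAC was in 0 of 6 windows on either strand, against 1.13% of all 27457 promoter windows of this length. A form shortened by its last letter, TCACNCCA, searched after the sequences had been seen and contained in every match to the full element, was in 2 of 6 (Msmo1 and Srebf2), against 3.91% of all. CCAAT was in 5 of 6 windows (37.7% of all), the GC box GGGCGG in 6 of 6 (34.9%), and the E-box CACGTG in 1 of 6, Insig1 (6.65%). These matches describe letters and do not show binding.

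Capitals mark TCACNCCA, CCAAT or its reverse complement ATTGG, and CACGTG. The Msmo1 window, chr16:29746863-29747112 on the plus strand, covers the 250 bases before the start and holds the shortened element at -190 to -183 and CCAAT from -173, -109 and -68. The Srebf2 stretch is chr7:115543140-115543169 on the plus strand, with the shortened element from -156. The Hsd17b7 stretch is chr13:84722811-84723004 and the Insig1 stretch chr4:8057813-8058019, both on the minus strand.
Msmo1: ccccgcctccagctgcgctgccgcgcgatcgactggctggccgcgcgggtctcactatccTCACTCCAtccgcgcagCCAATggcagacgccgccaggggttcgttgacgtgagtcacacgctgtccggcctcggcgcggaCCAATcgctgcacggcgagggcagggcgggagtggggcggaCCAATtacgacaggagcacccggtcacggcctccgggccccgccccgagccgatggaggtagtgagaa
Srebf2: atgacgcgccaTCACCCCAtgagccgcttc
Hsd17b7: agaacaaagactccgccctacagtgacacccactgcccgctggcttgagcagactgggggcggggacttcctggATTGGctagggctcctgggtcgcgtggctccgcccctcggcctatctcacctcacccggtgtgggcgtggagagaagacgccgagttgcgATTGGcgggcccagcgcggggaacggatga
Insig1: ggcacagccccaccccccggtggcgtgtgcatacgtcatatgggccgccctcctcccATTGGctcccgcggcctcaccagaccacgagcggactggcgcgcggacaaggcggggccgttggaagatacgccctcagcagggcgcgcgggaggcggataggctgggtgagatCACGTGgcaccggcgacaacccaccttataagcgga

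At 21 days, in the comparison taken to have chosen the genes, 8 of the 10 member probe sets were lower in transected than in sham rats past the threshold of limma's moderated test (adjusted p under 0.05 over all probe sets), 1 (Srebf2) was higher, and 1 (the brighter of the Fdft1 pair) was not past it. Over all probe sets 22.6% were past this threshold, 11.3% higher and 11.2% lower. Since this comparison chose the members, nothing is read from their count. Each sample is a pool of cells, so a change in which cells were collected and a change in RNA per cell cannot be told apart.

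The enzymes are described in pathway order. Acat2 is the cytosolic acetoacetyl-CoA thiolase that joins acetyl units at the head of the route. Its log2 signal was 9.38 at the lowest, 9.68 at the median and 9.91 at the highest in ShamC-21, against 8.05, 8.71 and 9.47 in Spi-21. In 7 of 8 transected samples it lay below every sham sample, and the mean difference was -0.89 ± 0.204 (SE, n = 8 and 6), or 1.85-fold lower. Mvd makes isopentenyl diphosphate, the isoprenoid unit. It ranged from 7.95 to 8.42 (median 8.12) in ShamC-21 and from 6.95 to 8.11 (median 7.72) in Spi-21, with a mean difference of -0.49 ± 0.158. The Mvd groups overlapped, with 6 of 8 transected samples below every sham sample.

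Fdft1, squalene synthase, makes the first intermediate committed to sterols. Its brighter probe set had medians of 8.17 in ShamC-21 (8.11 to 8.57) and 7.92 in Spi-21 (7.61 to 8.37), a difference of -0.33 ± 0.14, and this was the member probe set not past the threshold. Its second probe set had medians of 7.74 (7.57 to 8.00) and 7.44 (7.03 to 7.55), a difference of -0.39 ± 0.106, with all 8 transected samples below all 6 sham samples. The 2 probe sets thus had the same direction at 21 days. Sqle, the squalene epoxidase that carries out the first oxygenation of the sterol branch, had medians of 9.03 (8.51 to 9.22) and 8.47 (7.34 to 8.90). The difference was -0.65 ± 0.185, and the groups overlapped, with 4 of 8 transected samples below every sham sample.

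Msmo1, the sterol C4-methyl oxidase that removes methyl groups from lanosterol-derived sterols, was at 9.92, 10.22 and 10.76 (lowest, median, highest) in ShamC-21 and at 8.79, 9.52 and 9.88 in Spi-21. The groups did not overlap, and the mean difference was -0.81 ± 0.145, or 1.75-fold lower. Lower groups without overlap were found for 2 of the 10 member probe sets at 21 days, Msmo1 and the second of Fdft1, and for 2.22% of all probe sets. The same comparison chose the members, so nothing is read from this count either. Hsd17b7, the 3-keto reductase of the same demethylation complex, had medians of 7.24 (7.11 to 7.47) and 6.83 (6.24 to 7.17), a difference of -0.40 ± 0.119.

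Of the regulators, Srebf2 was the member that differed in the other direction. It was at 7.11, 7.31 and 7.38 (lowest, median, highest) in ShamC-21 and at 7.15, 7.71 and 8.32 in Spi-21. The difference was 0.51 ± 0.13, or 1.43-fold higher, with 7 of 8 transected samples above every sham sample. Insig1, which retains the SCAP and SREBP complex and is itself an SREBP target, had medians of 9.36 (8.95 to 9.49) and 8.82 (7.86 to 9.35), a difference of -0.56 ± 0.198. Stard4, a soluble carrier that moves sterol between membranes, had medians of 6.92 (6.69 to 7.59) and 6.58 (5.87 to 6.75), a difference of -0.53 ± 0.138. Of the member probe sets inside the threshold Insig1 lay closest to it, and just outside lay Fdft1 by its brighter probe set and, among sterol enzymes that are not members, Dhcr7 (-0.44) and Idi1 (-0.49).

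**Figure D1:**
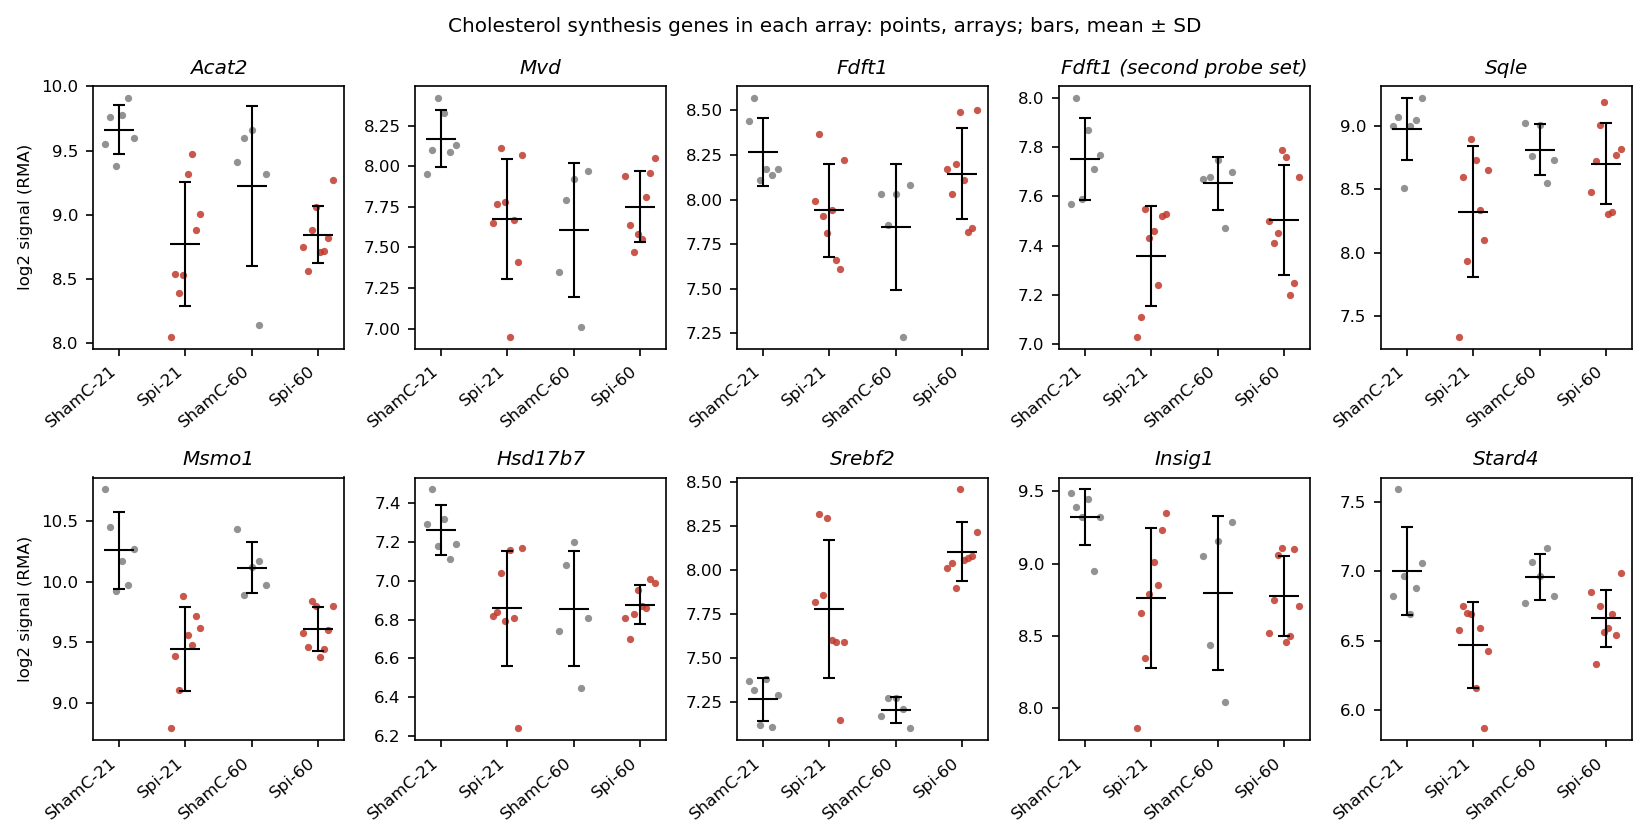
Log2 probe set signal of each member (1 panel per probe set, each with its own vertical scale) on each of the 27 arrays in the 4 groups, with 1 point per array (grey sham, red transected) and bars for the group mean ± SD. Srebf2 is above every sham array on all 8 Spi-60 arrays, Msmo1 is below every sham array of its day on all transected arrays, and ShamC-60 replicate 4 is the lowest of its group for Acat2 (8.14) and Fdft1 (7.23).

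The Spi-21 arrays were not uniform. Replicates 1 to 4 had differences between the 3' and 5' control probe sets of GAPDH, a sign of RNA integrity and amplification, of 2.57 to 3.47, against 0.98 to 1.46 in replicates 5 to 8 and 2.65 to 3.26 in ShamC-21. The labels name no batch for these arrays. Between these sets of 4, 3 of 10 member probe sets did not overlap, against 9.76% of all probe sets. Acat2 was at 8.05 to 8.54 in replicates 1 to 4 and at 8.88 to 9.47 in replicates 5 to 8. Insig1 was at 7.86 to 8.79 and 8.85 to 9.35, and Srebf2 at 7.82 to 8.32 and 7.15 to 7.60, in the same order. For all 3 the arrays with GAPDH values near those of ShamC-21 were the ones farther from sham. The same difference for actin did not separate the sets: the first spanned 2.89 to 3.53 and the second 2.86 to 3.6. By actin every Spi-21 array lay above the ShamC-21 range of 1.97 to 2.65, so neither set was near sham on both controls.

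Set against ShamC-21 separately, replicates 1 to 4 and replicates 5 to 8 gave the same sign for all 10 member probe sets, with sizes that differed. For Acat2 the difference was -1.29 with replicates 1 to 4 and -0.49 with replicates 5 to 8, for Insig1 -0.91 and -0.21, and for Srebf2 0.81 and 0.21. For Stard4 it was -0.32 and -0.74, and for Mvd -0.34 and -0.64, so these were larger in the other set. Msmo1 gave -0.96 and -0.66, and Hsd17b7 -0.39 and -0.42. With replicates 1 to 4 alone, 6 member probe sets were past the threshold as lower and 1 as higher, and with replicates 5 to 8 alone 3 were lower and 0 higher. No share over all probe sets is given for these smaller sets of arrays, and the comparison chose the members. Nothing is therefore read from these counts. The part of the control ratio in these sizes was not tested.

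**Figure D2:**
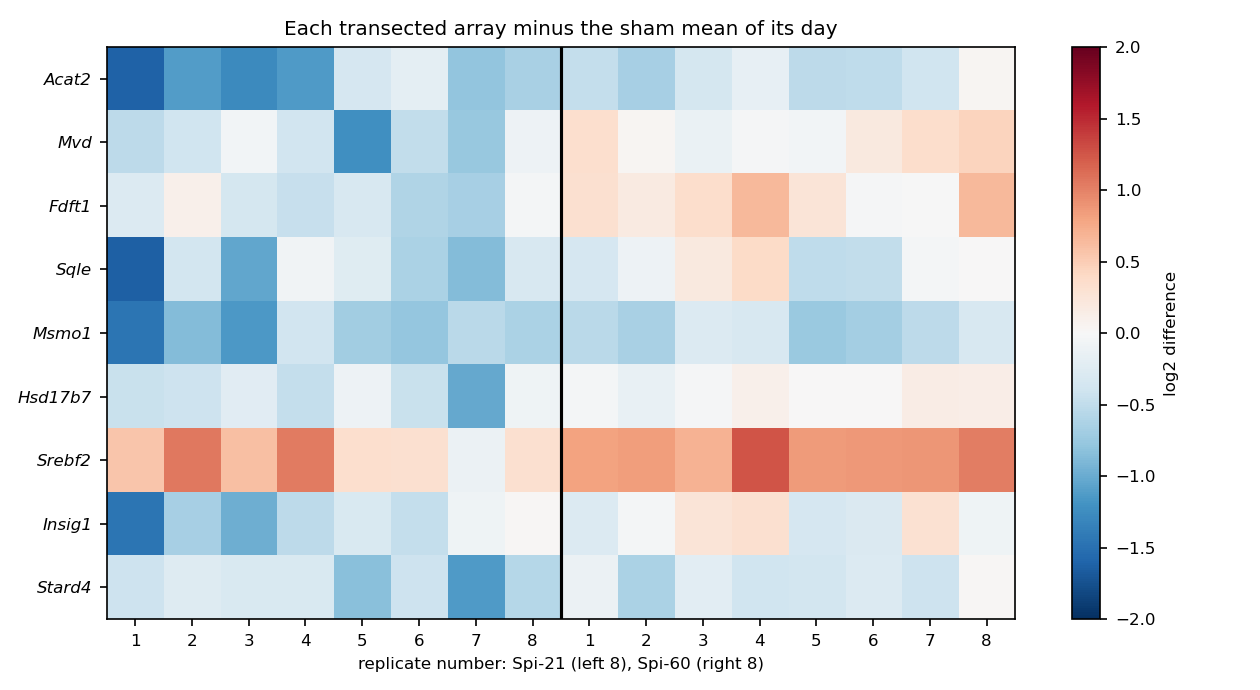
Each transected array's log2 signal minus the mean of the sham arrays of its day, for the 9 member genes by their brightest probe set (rows) on the 16 transected arrays (columns, by replicate number). At 21 days the Srebf2 row lies mostly above 0 and the others mostly below it, while at 60 days Srebf2 and Msmo1 keep 1 sign on all 8 arrays.

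At 60 days Srebf2 rose and Msmo1 fell. The other 8 probe sets did not pass the test, and their differences lay on both sides of 0. The median over the 9 genes, each by its brightest probe set, was -0.02 at 60 days and -0.53 at 21 days, against 0.02 and 0.01 over all genes. The 21-day median comes from the comparison that chose the members. Nothing is read from it or from its distance to the 60-day median. Of all probe sets 19.1% were past the threshold at 60 days, 10.2% higher and 8.92% lower, so 2 of 10 is near the background. The 60-day arrays are not part of the 21-day comparison, but their values were known when the members were proposed and may have entered the choice, so the 60-day p-values are not independent of it.

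Srebf2 was at 7.17, 7.27, 7.27, 7.21 and 7.10 in the 5 ShamC-60 samples and at 7.90, 8.06 and 8.46 (lowest, median, highest) in the 8 Spi-60 samples. Every transected sample was above every sham sample. The means were 7.20 ± 0.072 (SD, n = 5) and 8.10 ± 0.169 (SD, n = 8), a difference of 0.90 ± 0.138 (SE) or 1.87-fold, with a limma adjusted p of 6.24e-05. With each of the 27 arrays left out in turn the difference was between 0.85 and 0.93, and the limma adjusted p at most 0.000365.

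Msmo1 was at 10.43, 9.89, 10.12, 10.17 and 9.97 in ShamC-60 and at 9.38, 9.59 and 9.84 (lowest, median, highest) in Spi-60. The groups did not overlap, but the highest transected and the lowest sham sample were close. The difference was -0.50 ± 0.153 (SE, n = 8 and 5) or 1.42-fold, with a limma adjusted p of 0.0216. It missed the threshold without ShamC-60 replicate 1 (-0.43, limma adjusted p 0.082), without replicate 4 (-0.49, 0.052) and without both (-0.38, 0.222). Groups without overlap were found for 4.78% of all probe sets as higher and 3.42% as lower at 60 days, and among the members for 1 in each direction.

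Acat2 had a difference of -0.38 ± 0.216 that did not pass (limma adjusted p 0.22). Its ShamC-60 values were 9.41, 9.60, 9.66, 8.14 and 9.32, and its Spi-60 values lay between 8.56 and 9.27. The low sham value is that of replicate 4, and without this array all 8 transected samples were below all sham samples and the difference was -0.65 (limma adjusted p 0.0228). Replicate 4 is also the array with the low motor neuron marker mean. Mvd, at 7.35, 7.79, 7.92, 7.01 and 7.97 in ShamC-60 and 7.47 to 8.05 in Spi-60, differed by 0.14 ± 0.167 (95% interval -0.20 to 0.48, limma adjusted p 0.592), and by -0.01 without replicate 4.

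The 2 probe sets of Fdft1 pointed in different directions at 60 days. The brighter was at 8.03, 7.86, 8.03, 7.23 and 8.08 in ShamC-60 and 7.82 to 8.50 in Spi-60, a difference of 0.30 ± 0.147 (limma adjusted p 0.156) that was 0.14 without ShamC-60 replicate 4. The second was at 7.67, 7.68, 7.75, 7.47 and 7.70 and at 7.20 to 7.79, a difference of -0.15 ± 0.111 (limma adjusted p 0.37). Neither passed, and no direction is given for the gene at this time. Sqle was at 9.02, 8.76, 9.01, 8.55 and 8.73 in ShamC-60 and 8.31 to 9.19 in Spi-60, a difference of -0.11 ± 0.196 (95% interval -0.51 to 0.29, limma adjusted p 0.728).

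Hsd17b7 was at 6.74, 7.08, 7.20, 6.45 and 6.81 in ShamC-60 and 6.70 to 7.01 in Spi-60, a difference of 0.02 ± 0.126 (95% interval -0.24 to 0.28, limma adjusted p 0.928). Insig1 was at 9.05, 8.44, 9.16, 8.04 and 9.29 and at 8.46 to 9.11, a difference of -0.02 ± 0.209 (95% interval -0.45 to 0.41, limma adjusted p 0.963). Without ShamC-60 replicate 4 these were -0.08 for Hsd17b7 and -0.21 for Insig1. Both intervals leave room for a difference of either sign, and both groups of 5 were wide. Stard4 was at 6.77, 7.07, 6.97, 7.17 and 6.82 and at 6.33 to 6.99, a difference of -0.29 ± 0.145 (limma adjusted p 0.155).

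**Figure D3:**
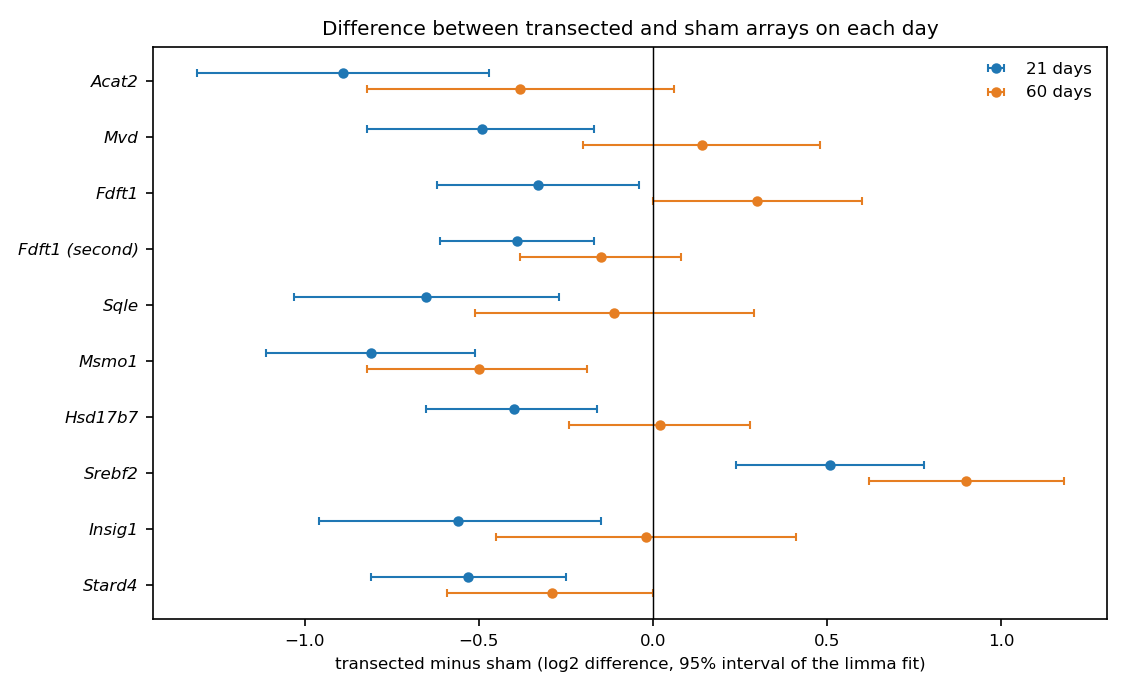
Difference in log2 signal, transected minus sham, for each member probe set at 21 and at 60 days, with 95% intervals of the fit. The 21-day points chose the members and lie below 0 except for Srebf2 (0.51), and at 60 days the intervals of Srebf2 (0.90) and Msmo1 (-0.50) lie clear of 0.

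Between days, 0 of 10 member probe sets passed the test in sham rats, where 0% of all probe sets passed, and 0 of 10 in transected rats, where 0.0852% passed. All 10 were lower at 60 than at 21 days in sham rats by their estimates, with a median over genes of -0.40 (all genes 0), and all 10 were higher in transected rats, with a median of 0.17 (all genes 0.02). In sham rats Mvd gave -0.56, Insig1 -0.53, Acat2 -0.44, Fdft1 -0.42 by the brighter probe set and Hsd17b7 -0.40, each with a limma adjusted p of 0.999. Without ShamC-60 replicate 4 these were -0.41, -0.34, -0.17, -0.27 and -0.30 in the same order. In transected rats the largest were Sqle, at 0.38 ± 0.172 (limma adjusted p 0.342), and Srebf2, at 0.33 ± 0.121 (limma adjusted p 0.224). At an unadjusted limma p under 0.05, 4 member probe sets and 513 of all were past it in sham rats, and 2 and 1706 in transected rats. These comparisons use the 21-day arrays that chose the members, so nothing is read from the member counts, medians or shared directions.

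The difference of the transection effect between days, as an interaction term, passed for 0 of 10 member probe sets and 0% of all. It was 0.63 ± 0.203 for Fdft1 by the brighter probe set, 0.63 ± 0.23 for Mvd, 0.42 ± 0.173 for Hsd17b7 and 0.39 ± 0.189 for Srebf2. The term contains the effect that chose the members, so its member sizes and counts are a description only. Whether the effect on any member differed between the days cannot be decided from it. The Srebf2 values depended on which Spi-21 arrays were used: the difference between days in transected rats was 0.03 with replicates 1 to 4 alone and 0.62 with replicates 5 to 8 alone, and the interaction 0.09 and 0.69. These values by replicate set use the arrays that chose the members, so they are given without a test.

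Within groups, members varied together to different degrees. After subtraction of the group means over 27 arrays, the 36 pairs of member genes had correlations of -0.419 to 0.716 with a median of 0.294, and 27 were above 0. The highest pair was Msmo1 with Sqle. Pairs of other genes were not summarised, so these values have no baseline. For Msmo1 the most alike of 9768 other genes were Pfn2 (Pearson r 0.863, Spearman rho 0.835), Slc20a1 (0.854, 0.835) and Capza2 (0.83, 0.796), and Sqle ranked 91. For Sqle they were Bcat1 (r 0.852, rho 0.861), Ndrg4 (0.834, 0.806) and Slc25a5 (0.826, 0.756). For Srebf2 they were Mapk6 (r 0.814, rho 0.595), Cox4i1 (0.805, 0.633) and Uchl1 (0.778, 0.824). These are descriptions over arrays that share array-wide differences in quality.

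The other genes of the route were followed through 4 lists, written with earlier results of these data known. Over all 9769 genes, each by its brightest probe set, 11.1% rose and 11.5% fell at 21 days, and 10.7% rose and 9.44% fell at 60 days. The counts of the lists are to be read against these shares. Of 17 further synthesis genes 12 were measured; 2 fell at 21 days, 1 fell at 60 days and 0 rose at either. Erg28, a scaffold of the sterol demethylation complex that includes Hsd17b7, fell by 0.86 on the log2 scale at 21 days (limma adjusted p 0.000315) and by 0.52 at 60 days (limma adjusted p 0.0226). The 60-day fall was not past the threshold without ShamC-60 replicate 4 (-0.41, limma adjusted p 0.0978). Ggps1, which makes the isoprenoid geranylgeranyl diphosphate, fell at 21 days (-0.66 ± 0.14, limma adjusted p 0.00193). Idi1, the isomerase of isoprenoid units, did not pass at 21 days (-0.49, limma adjusted p 0.0739) or 60 days (-0.43, 0.148). At 21 days Idi1 did pass without Spi-21 replicate 7 (-0.62, limma adjusted p 0.0151) or ShamC-21 replicate 3 (-0.57, 0.0477). With Spi-21 replicates 5 to 8 alone it was -0.15 (limma adjusted p 0.693), and with replicates 1 to 4 alone -0.83 (0.00366). Cyp51, the lanosterol demethylase, did not pass at either time (-0.21, limma adjusted p 0.338, and -0.38, 0.107). Its 21-day difference was -0.54 with Spi-21 replicates 1 to 4 alone (limma adjusted p 0.0103) and 0.11 with replicates 5 to 8 alone (0.698). At 60 days it did pass without Spi-60 replicate 8 (-0.46, limma adjusted p 0.0439), while its second probe set was at 0.03. Sc5d, the lathosterol oxidase, passed as lower at both times by its second probe set (-0.71, limma adjusted p 0.0285, and -0.73, 0.0356) but not by its brightest (-0.39 and -0.46). The list median was -0.23 at 21 days and -0.17 at 60 days. Hmgcs1, Mvk and Fdps had no single-symbol probe set in the table used.

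Of 16 regulators of sterol sensing 12 were measured, and 1 rose and 1 fell at each time. Srebf1, the paralog of Srebf2 that drives fatty acid genes, rose by 0.52 ± 0.118 at 21 days (limma adjusted p 0.00289) and by 0.52 ± 0.125 at 60 days (limma adjusted p 0.00468). Its second probe set was at 0.30 at 21 days and 0.04 at 60 days, so the 60-day rise is that of 1 probe set. Rnf139, a ubiquitin ligase of the endoplasmic reticulum, fell at 21 days (-0.75 ± 0.157, limma adjusted p 0.00167) and 60 days (-0.70 ± 0.166, limma adjusted p 0.00446). The 21-day fall missed the threshold with Spi-21 replicates 5 to 8 alone (-0.49, limma adjusted p 0.0698), and the 60-day fall without ShamC-60 replicates 1 and 4 (-0.51, 0.106). Scap, the escort of SREBP-2, had differences of -0.29 (limma adjusted p 0.0958) and -0.14 (0.48). Insig2, the paralog of Insig1, had differences of 0.12 (limma adjusted p 0.433) and 0.08 (0.653), and its second probe set was lower at 21 days (-0.38, limma adjusted p 0.0313). The list medians were 0.05 and 0.07.

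Of 22 genes of uptake, transport and export 13 were measured, and 2 rose and 2 fell at 21 days while 5 rose and 1 fell at 60 days. The list medians were 0.05 and 0.10. Apoe, the lipoprotein of astrocyte-made particles, rose by 2.40 ± 0.239 at 21 days (limma adjusted p 2.23e-07) and by 1.91 ± 0.252 at 60 days (limma adjusted p 1.05e-05). Astrocytes and microglia make much of the apolipoprotein E in the cord. Of the astrocyte markers 7 of 10 were measured; their mean was 8.69 to 9.54 in Spi-21 and 8.17 to 9.26 in ShamC-21, a difference of 0.47 (exact permutation test, 2-sided, adjusted p 0.0657), and 0.22 at 60 days (exact permutation test, adjusted p 0.433), and 3 of the 7 rose at 21 days and 1 at 60 days. Of the microglial markers 9 of 10 were measured, with differences of 0.11 and 0.20 (exact permutation tests, adjusted p 0.677 and 0.433), and 2 rose at 21 days and 1 at 60 days. None of these astrocyte or microglial markers was at 0. With the mean of astrocyte, oligodendrocyte and microglial markers as a covariate the Apoe difference was 2.00 at 21 days (limma adjusted p 1.32e-09) and 1.58 at 60 days (limma adjusted p 1.36e-07). This covariate mixes a few markers of several cell types from the same arrays. The part of glial RNA in the Apoe rise was not tested.

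Abca2, a lipid transporter of late endosomes and lysosomes, rose by 0.54 ± 0.103 at 21 days (limma adjusted p 0.000721) and 0.64 ± 0.109 at 60 days (limma adjusted p 0.000215). At 60 days Lrp1, a receptor for apolipoprotein E, rose by 0.40 (limma adjusted p 0.0174), and the sterol exporters Abcg1 (0.39, 0.0204) and Abcg4 (0.38, 0.0242) rose too. The Abcg1 rise was lost when any of ShamC-60 replicates 1, 3 and 5 was left out (0.36, 0.35 and 0.29, limma adjusted p 0.0621, 0.0533 and 0.0720). The Abcg4 rise was lost without ShamC-60 replicate 1 (0.35, limma adjusted p 0.0731) or 4 (0.38, 0.0550). At 21 days the exporter Abca1 fell (-0.69, limma adjusted p 0.0217), as did the lysosomal lipase Lipa (-0.33, 0.0291), calls that did not hold with single arrays left out: ShamC-21 replicate 1 or 4 for Abca1 (-0.57 and -0.62), and Spi-21 replicate 1 or 2 or ShamC-21 replicate 3 or 4 for Lipa (-0.28 to -0.30). The Abca1 probe set was dim, with means of 4.39 in Spi-21 and 5.08 in ShamC-21, below every array median. Lipa was -0.52 with Spi-21 replicates 1 to 4 alone (limma adjusted p 0.00203) and -0.14 with replicates 5 to 8 alone (0.446). The lipoprotein receptor Scarb1 fell at 60 days by its brightest probe set (-0.39, limma adjusted p 0.0227), a call lost without ShamC-60 replicate 4 (-0.32, 0.0993). Its second probe set gave 0.07 at 60 days (limma adjusted p 0.699), so the fall is that of 1 probe set. Npc1 had no single-symbol probe set in the table used.

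Of 14 fatty acid genes known as SREBP targets 9 were measured, and 0 rose and 4 fell at 21 days while 1 rose and 3 fell at 60 days. The stearoyl-CoA desaturase Scd fell by 0.80 on the log2 scale at 21 days (limma adjusted p 0.000989) and by 0.50 at 60 days (limma adjusted p 0.0339). The fatty acid desaturase Fads1 fell at 21 days (-0.55, limma adjusted p 0.0163) and 60 days (-0.88 ± 0.171, limma adjusted p 0.000741). Its 21-day fall missed the threshold with Spi-21 replicates 5 to 8 alone (-0.3, limma adjusted p 0.259). With replicates 1 to 4 alone it was -0.8 (0.00159). Scd2 fell at both times by its brightest probe set (-0.84, limma adjusted p 0.0348, and -1.01, 0.0207), while its second probe set gave 0.19 and 0.14. The 21-day fall of Scd2 was -1.15 with Spi-21 replicates 1 to 4 alone (limma adjusted p 0.0149) and -0.54 with replicates 5 to 8 alone (0.3). Lpin1, which acts in triglyceride synthesis, fell at 21 days (-0.39, limma adjusted p 0.0275), and the elongase Elovl5 rose at 60 days (0.35, limma adjusted p 0.043). Single arrays decided several of these: the 60-day Scd call was lost with any of 7 arrays left out, that of Scd2 with any of 7 at 21 days and 2 at 60 days, that of Lpin1 with 5 and that of Elovl5 with 10. Scd2 at 60 days was -0.67 without ShamC-60 replicate 1 (limma adjusted p 0.112) and -0.90 without replicate 4 (0.0692). Without these arrays Elovl5 was 0.36 (limma adjusted p 0.0766) and 0.37 (0.0659), and Scd without replicate 1 was -0.48 (0.0807). The probe sets of Scd and Elovl5 were dim, with mean signals not above the median over all probe sets. The list medians were -0.37 and -0.05.

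**Figure D4:**
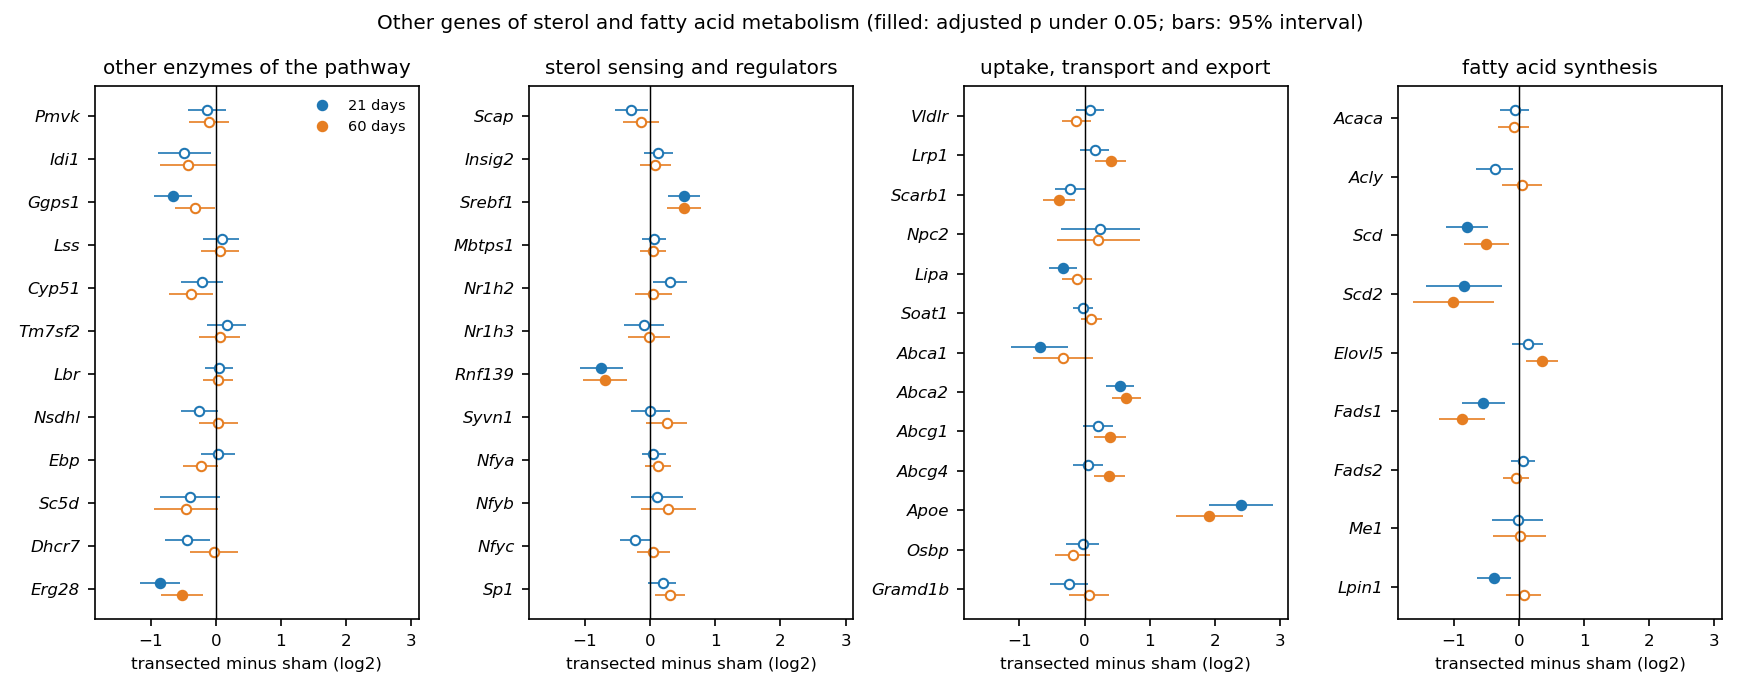
Difference in log2 signal, transected minus sham, at 21 and 60 days for the measured genes of the 4 further lists, by brightest probe set, with 95% intervals and filled points for genes past the limma threshold. Apoe stands at the high end (2.40 and 1.91), and of the 46 measured genes 3 rose and 9 fell at 21 days and 7 rose and 6 fell at 60 days. Over all 9769 genes 11.1% rose and 11.5% fell at 21 days, and 10.7% rose and 9.44% fell at 60 days.

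RNA quality measures also moved with the groups. The difference between 3' and 5' control probe sets of actin was 0.92 higher in transected samples at 21 days (exact permutation test, 2-sided, adjusted p 0.0107 over 16 tests) and 1.05 higher at 60 days (exact permutation test, adjusted p 0.0124), and that of GAPDH was 0.81 higher at 60 days (exact permutation test, adjusted p 0.0166). At 21 days that of GAPDH was lower by 0.84 (exact permutation test, adjusted p 0.149). The mean of the blood markers Hbb and Alas2 was lower by 0.87 at 60 days (6.26 to 6.88 against 6.72 to 8.81, exact permutation test, adjusted p 0.0311). The motor neuron marker mean was lower by 0.16 at 21 days and higher by 0.36 at 60 days (exact permutation tests, adjusted p 0.0657 and 0.306), where ShamC-60 replicate 4 lowers the sham mean. Oligodendrocyte markers, 8 of 10 measured, differed by 0.35 and 0.32 (exact permutation tests, adjusted p 0.148 and 0.306). With the mean of astrocyte, oligodendrocyte and microglial markers as a covariate, the 60-day difference was 0.85 for Srebf2 and -0.53 for Msmo1. The part of the control ratios in the member values was not tested.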

How the data were processed

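The deposited values were log2 probe set signals, made by the authors with RMA per the submitters' processing notes; its version is not given in the sources used here. RMA brings array distributions close to each other (array medians 6.31 to 6.41), so a shift of all genes would not be seen. All 27 columns were matched to samples by name. Probe sets took their gene from the platform annotation, and 320 with several symbols and 713 with none were not named; 6 control probe sets were left out of the tests. A gene was represented by its probe set of highest mean, all single-symbol probe sets of members being shown. Members, lists and the motifs were chosen with earlier results of these data known. Other genes were named as up to 6 per list and day with the smallest p past the threshold, plus Hmgcs1, Scap, Insig2, Srebf1, Cyp51, Idi1 and Apoe (others in this rule are not reported here); Dhcr7 was named after its value was seen.

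Differences were fitted in R 4.3.3 with limma 3.58.1 (lmFit, eBayes, 4 groups over 27 arrays, no covariate, 2-sided, Benjamini-Hochberg over 12913 probe sets, threshold 0.05). The fit was tested on simulated data. Marker means and control ratios were compared by 2-sided exact permutation tests (16, adjusted together). Replicate numbers were checked for pairing: samples of the same number in different groups had a median correlation of deviations of -0.008 over 35 pairs, against 0.004 for other numbers, so they were not treated as pairs. Alternatives were quantile normalization, a filter on dim probe sets, array weights, another variance prior, the replicate block, fewer groups or arrays, and a glial covariate. Arrays have no count depth, and their number limits the precision.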

Additional observations from a re-analysis of the deposited data

Results flagged for a closer look

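Of 40 groups of values (10 member probe sets in 4 groups), 6 had an extreme sample farther from its neighbours than Dixon's test allows at the 95% level, a rate that chance gives in about 1 of 20 groups. In 3 of them the sample was ShamC-60 replicate 4: Acat2 at 8.14 against 9.32 for the nearest sample, Fdft1 at 7.23 against 7.86, and the second Fdft1 probe set at 7.47 against 7.67. This array also had the lowest motor neuron marker mean (9.93). The others were Sqle in ShamC-21 replicate 3 (8.51), Hsd17b7 in Spi-21 replicate 7 (6.24 against 6.79) and Insig1 in ShamC-21 replicate 5 (8.95 against 9.32).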

How the results depend on the processing

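No called value changed sign under any alternative run; of values not called in either setting 13 changed sign under at least 1 alternative, among them 60-day Mvd (-0.15 to 0.23), Hsd17b7 (-0.15 to 0.11) and Insig1 (-0.21 to 0.11) and 21-day Cyp51 (up to 0.11). The 60-day rise of Srebf2 passed under all of them (0.85 to 0.98). With Spi-21 replicates 5 to 8 alone, the 21-day member counts were 0 higher and 3 lower (1 and 8 with all arrays) and 3 other pathway genes were lower (9 with all arrays). With the same arrays alone, the Srebf2 difference between days in transected rats was 0.62 and its interaction 0.69, against 0.03 and 0.09 with replicates 1 to 4 alone. These values use the arrays that chose the members and are given without a test. With replicates 1 to 4 alone, 5 other pathway genes were higher at 21 days (3 with all), and Srebf2 was 0.81, against 0.21 with replicates 5 to 8. With the glial covariate 5 member probe sets were lower at 21 days. For the alternatives no share over all probe sets is given, so nothing about the members or the pathway is read from their counts. At 60 days, array weights gave 2 members lower (1 without them), Acat2 being added (-0.63, limma adjusted p 0.00354), and leaving out ShamC-60 replicates 1 and 4 gave 1 other pathway gene lower (6 with all). With 1 array left out in turn, other pathway genes lower at 21 days ranged from 5 (without ShamC-21 replicate 4) to 11. At 60 days other pathway genes higher ranged from 4 (without ShamC-60 replicate 1) to 8, members lower from 0 to 1, and other pathway genes lower from 3 (without ShamC-60 replicate 4) to 7. The replicate block gave 8 member probe sets lower and 1 higher at 21 days, as without it, and a 60-day Srebf2 difference of 0.98; the numbers do not pair the samples. After quantile normalization Lipa (-0.22, limma adjusted p 0.129), Lpin1 (-0.28, 0.0835) and Scd2 (-0.75, 0.0537) were no longer past the threshold at 21 days. Nor were Scarb1 (-0.34, limma adjusted p 0.0502) and Elovl5 (0.33, 0.0556) at 60 days, while Abcg1 passed as higher at 21 days (0.31, 0.0336). The causes of these changes were not tested. With 5 to 8 arrays per group, differences of the size seen for Hsd17b7 or Insig1 at 60 days could not be told from 0.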
